A study of Mus musculus with 12 samples.

Results

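The 8 genes Ghr, Jak2, Stat5a, Stat5b, Socs1, Socs2, Socs3 and Cish, which belong to growth hormone (GH) receptor signalling, were followed in pituitary RNA. They were taken by symbol from the deposited gene IDs, and all 8 were found among 55421 IDs and were among the 22630 genes with enough counts to be tested. The transcript of growth hormone itself, Gh, is given beside them as a reference. RNA came from dispersed pituitary cells of C57BL/6 mice whose Gpr101 gene was floxed in every group (Gpr101fl/fl). Mice carried a control virus (Cga-ctrlAAV) or a cre virus (Cga-creAAV), named for Cga, the gene of the glycoprotein hormone alpha subunit, and received vehicle or the ligand AA14 for 1 week. This gave 4 groups of 3 libraries, here named ctrl_vehicle, ctrl_AA14, cre_vehicle and cre_AA14 and numbered as in their titles. The labels give no age, and they do not say that each library came from a separate mouse, so the tests below rest on the spread from library to library, which may be technical. Cga is a gene of gonadotrophs and thyrotrophs, whereas the GH axis of the pituitary lies in somatotrophs, and the RNA was not separated by cell type.

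The GH receptor has no kinase activity of its own. It holds the kinase JAK2, which after GH binding phosphorylates the receptor and the transcription factors STAT5A and STAT5B. STAT5 dimers then move to the nucleus and switch on target genes, among them Igf1 in liver and the feedback inhibitors Cish and Socs2, whose proteins bind phosphorylated receptor or mark it for breakdown. SOCS1 and SOCS3 block JAK kinases more directly and are also induced by interferons and by cytokines such as interleukin 6. GH-secreting cells carry GH receptor as well. Transcript counts do not measure phosphorylation, on which the pathway's activity rests.

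STAT5 dimers recognise the letters TTCNNNGAA, which read the same on both strands. RefSeq promoters (250 bases before to 50 after each gene start, GRCm38.p6) were matched by symbol for 7 of the 8 genes; Socs2 had no entry. The letters were present in 2726 of 32851 such promoters, or 8.3%, and 2 or more times in 0.457%. Among the 7 genes they were present in Cish and Socs3 alone. The windows below are shown because they hold those matches, which are in capitals.

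Cish, chr9:107296654-107296683, plus strand: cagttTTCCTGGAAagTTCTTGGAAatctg

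Socs3, chr11:117969502-117969531, minus strand: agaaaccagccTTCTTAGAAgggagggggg

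The 2 Cish matches begin at bases 1 and 12 after the RefSeq gene start, and the Socs3 match begins at base -154, upstream of its RefSeq start. The GENCODE gene spans given below start elsewhere, at 107296026 for Cish and, on the minus strand, at 117970047 for Socs3. Both windows lie inside those spans. These are matches of letters and not measured binding sites. No match in the windows of Ghr, Jak2, Stat5a, Stat5b or Socs1 says only that these letters are absent from those 300 bases.

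Library totals ranged from 48693682 to 73388221 counts. Gpr101, the floxed gene, ranged from 1.22 to 16.1 CPM (a gene's counts scaled to a common library size) in the 6 control-virus libraries and from 0.901 to 4.30 CPM in the 6 cre libraries, so the ranges overlapped; the deleted part of the gene is not given in the labels. All 4 somatotroph markers passed the count filter, with a summed level of 90750 to 242500 CPM. The adipocyte genes Adipoq and Cfd were at 0 in every library. Libraries stood apart in 3 ways that were not those of the labels. First, 5 libraries had more than 1000 CPM of the nuclear RNA Malat1 (1105 to 1560 CPM), namely ctrl_AA14 1, 2 and 3, cre_vehicle 1 and cre_AA14 2; the other 7 had 198.9 to 548.6 CPM. All 3 AA14 libraries and no vehicle library of the control-virus mice were among the 5. In those mice AA14 and this library state thus cannot be told apart. The same 5 had lower posterior lobe markers (15.75 to 23.12 against 46.83 to 424.6 summed CPM). They had more of the somatotroph marker Ghrhr (241.5 to 316.4 against 83.99 to 159.8 CPM) and higher gonadotroph markers (2266 to 2575 against 1238 to 1980 summed CPM). None of these ranges overlapped, as for 22.4% of all genes tested, but those of the summed somatotroph level did. The part of cell content in this split was not tested. Second, ctrl_vehicle 3, ctrl_AA14 1 and cre_vehicle 2 were rich in the 7 oligodendrocyte markers (summed 752 to 3313 CPM, against 69.5 to 465.2 CPM in the others). Last, cre_AA14 1 was high in inflammation and immediate-early genes. In this bulk RNA, fewer cells of a type and less RNA per cell cannot be told apart.

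Levels between genes were compared as CPM per kilobase of exon, as medians of the 12 libraries with the lowest and highest library. Stat5b led the 8 genes at 12.4 (7.78 to 16.4), close to the cytokine receptor subunit Il6st at 12.1 and below the kinase Jak1 at 18.3. Jak2 followed at 8.98 (7.48 to 10.7), Socs3 at 7.18 (4.74 to 70.3), Socs2 at 6.35 (4.19 to 7.74) and Cish at 4.46 (2.60 to 5.79). Stat5a had 2.91 (2.16 to 3.94), Ghr 2.10 (1.64 to 2.48) and Socs1 0.973 (0.422 to 1.72). Each pair of neighbours in this order overlapped in range over the 12 libraries, Ghr and Socs1 by the narrowest margin. The prolactin receptor Prlr, which signals through the same kinase and STATs, had 4.80 and thus lay above Ghr. Gh itself had 211800 CPM per kilobase. With the longest transcript in place of all exons, Socs2 rose to 14.3 and became the highest of the 8.

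**Figure D1:**
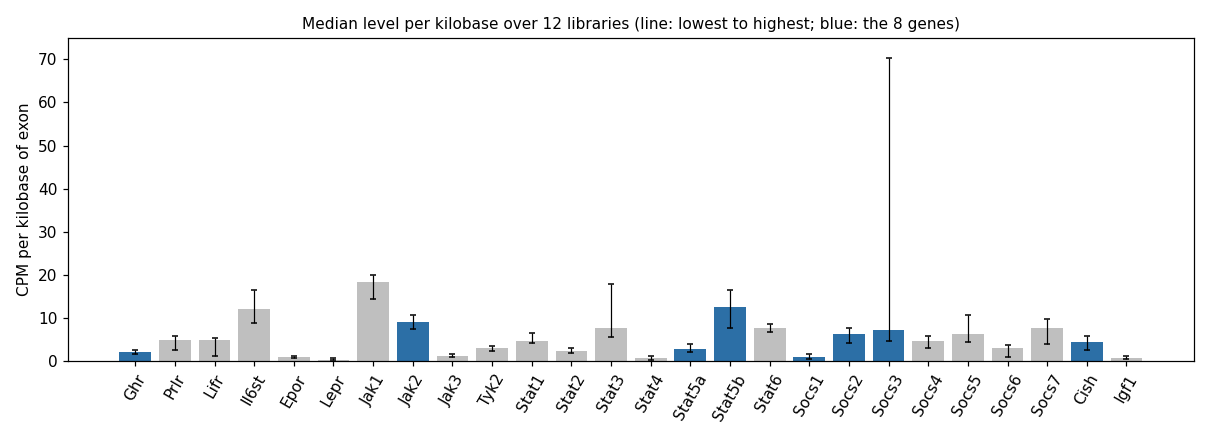
Bars give the median CPM per kilobase of exon over 12 libraries for the 8 genes (blue) and other receptors, kinases, STATs, SOCS genes and Igf1 (grey), and lines run from the lowest to the highest library. Jak1 had the highest median of those drawn, Stat5b the highest of the 8 genes, and the long Socs3 line is the 70.3 of cre_AA14 1.

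The receptor and its kinase were the steadiest of the 8 genes. Ghr (ENSMUSG00000055737, GRCm38 chromosome 15, 3317760 to 3583492, minus strand) encodes the GH receptor. It measured 18.0, 19.9 and 22.4 CPM in ctrl_vehicle, 14.9, 16.9 and 21.9 in ctrl_AA14, 19.98, 19.55 and 18.43 in cre_vehicle, and 16.4, 17.4 and 20.6 in cre_AA14. The 4 groups overlapped, and the 12 libraries spanned 0.58 on the log2 scale. Jak2 (ENSMUSG00000024789, chromosome 19, 29251828 to 29313080, plus strand) encodes the receptor's kinase. It measured 46.7, 48.3 and 44.1 CPM in ctrl_vehicle, 46.0, 43.3 and 37.6 in ctrl_AA14, 45.3, 45.1 and 46.1 in cre_vehicle, and 54.0, 42.4 and 44.4 in cre_AA14. Its SD over libraries was 0.12 on the log2 scale, and 5.2% of 3084 genes of like level (within 0.5 on the log2 scale) had a smaller one. For Ghr the SD was 0.17 and the share 13%. In control-virus mice the edgeR log2 fold change with AA14 was -0.17 for Ghr (standard error, SE, 0.17; adjusted p = 0.586) and -0.13 for Jak2 (SE 0.13; adjusted p = 0.572). In cre mice it was -0.09 for Ghr and 0.05 for Jak2, each with an adjusted p of 1.

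**Figure D2:**
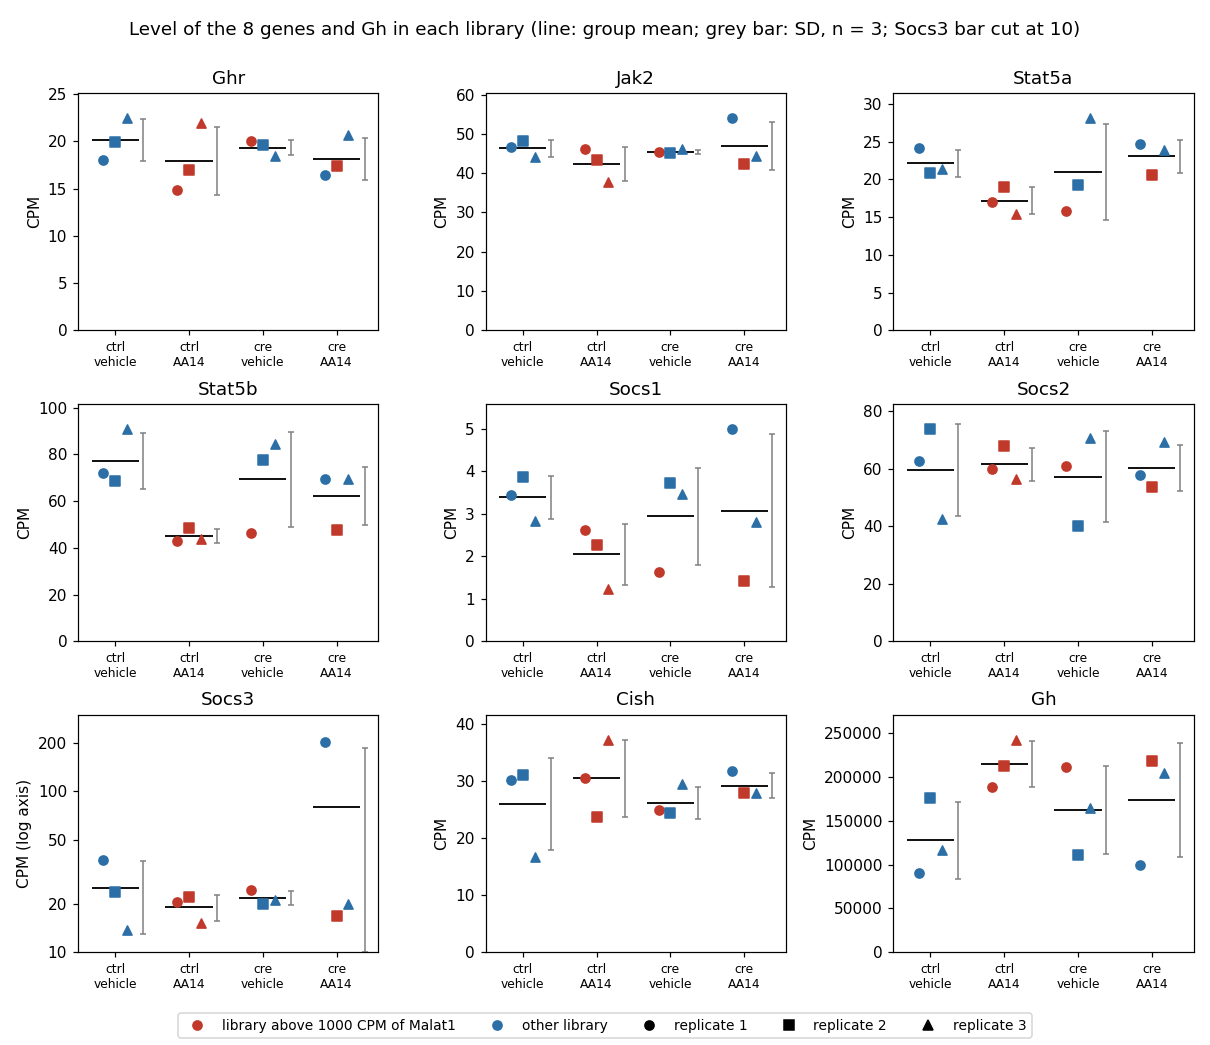
Each panel gives the level of 1 gene in CPM (linear axis from 0, but a log axis for Socs3) in 3 libraries per group, with the group mean as a line and the SD as a grey bar; red points are the 5 libraries above 1000 CPM of Malat1. Ghr and Jak2 lie flat, red points lie lowest for Stat5b and Socs1 in each group that holds both colours, and 1 Socs3 point stands at 203.1 CPM.

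Of the STATs, Stat5b fell into a low and a high set of libraries and Stat5a did not. Stat5b (ENSMUSG00000020919, chromosome 11, 100780731 to 100850724, minus strand) and Stat5a (ENSMUSG00000004043, chromosome 11, 100859351 to 100885169, plus strand) are neighbouring genes for closely related factors. Stat5b measured 72.1, 68.6 and 90.8 CPM in ctrl_vehicle and 43.1, 48.6 and 43.9 CPM in ctrl_AA14. The 3 ctrl_AA14 libraries were all lower than the 3 ctrl_vehicle libraries, with means of 45.2 ± 3.01 against 77.1 ± 11.9 CPM (SD, n = 3 each). In the cre_vehicle libraries Stat5b measured 46.2, 77.4 and 84.4 CPM, and in the cre_AA14 libraries 69.4, 47.7 and 69.4 CPM. Each cre group thus held 1 low library, cre_vehicle 1 and cre_AA14 2, and these are the 2 cre libraries above 1000 CPM of Malat1. Over all 12, Stat5b was 43.1 to 48.6 CPM in the 5 Malat1-rich libraries and 68.6 to 90.8 CPM in the other 7, with no overlap. Of all genes tested, 22.4% did not overlap between these 5 and 7 libraries, 13.1% being lower and 9.23% higher in the 5.

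Stat5a measured 24.2, 20.9 and 21.4 CPM in ctrl_vehicle and 17.0, 19.0 and 15.4 CPM in ctrl_AA14, again without overlap. Under the cre virus the vehicle libraries had 15.8, 19.2 and 28.1 CPM and the AA14 libraries 24.7, 20.6 and 23.9 CPM. Its Malat1-rich libraries (15.4 to 20.6 CPM) overlapped the others (19.2 to 28.1 CPM). The Stat5b to Stat5a ratio of CPM was 2.31 to 2.92 in the former and 2.81 to 4.25 in the latter, so these ranges touched as well. The transcripts are alike in places. Of all 150-base stretches, the read length, 2.21% of those of Stat5a also occurred in Stat5b and 3.16% of those of Stat5b in Stat5a. How reads fitting both were counted is not given in the sources used here. A Stat5a exon also overlaps an exon of Stat3 on the opposite strand by 72 bases.

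**Figure D3:**
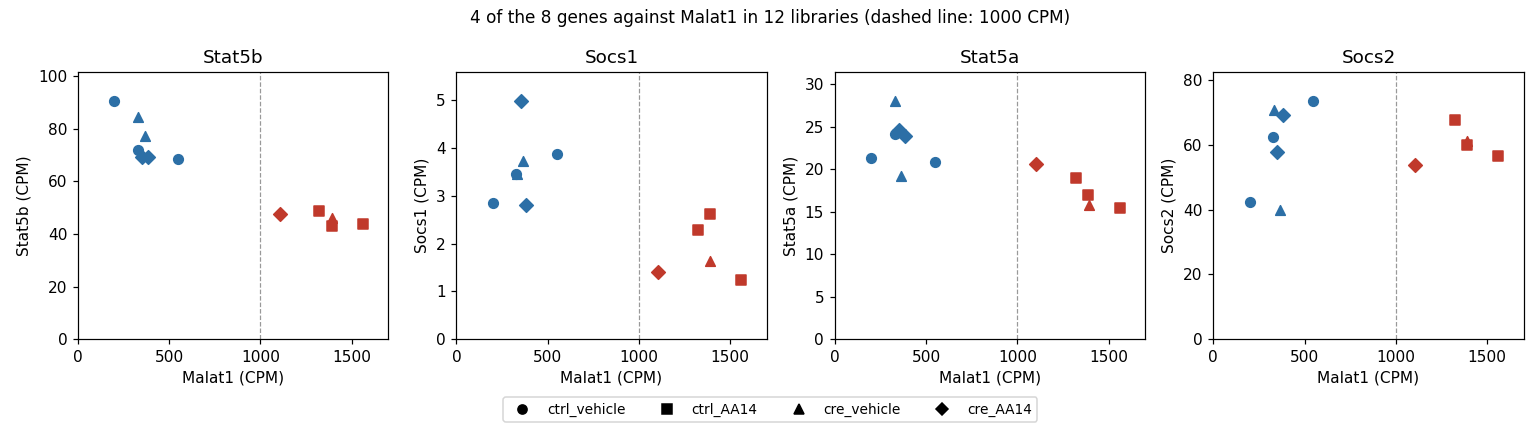
The levels of Stat5b, Socs1, Stat5a and Socs2 (CPM) are plotted against that of Malat1 (CPM) in 12 libraries, with symbols for the 4 groups, a dashed line at 1000 CPM of Malat1 and the libraries above it in red. Stat5b and Socs1 fall into separate low and high sets on the 2 sides of the line, while Stat5a and Socs2 overlap across it.

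Socs1 and Socs3, the inhibitors that act on JAK kinases, had the widest ranges. Socs1 (ENSMUSG00000038037, chromosome 16, 10782240 to 10785536, minus strand) was the scarcest gene, with 78 to 326 counts per library. It measured 3.45, 3.86 and 2.84 CPM in ctrl_vehicle, 2.63, 2.27 and 1.23 in ctrl_AA14, 1.64, 3.73 and 3.46 in cre_vehicle, and 4.99, 1.41 and 2.82 in cre_AA14. The ctrl_AA14 libraries lay below the ctrl_vehicle libraries. Socs1 was 1.23 to 2.63 CPM in the 5 Malat1-rich libraries and 2.82 to 4.99 CPM in the other 7. It was thus the second of the 8 genes to split by library state, by a narrow gap. Of all genes tested, 22.4% split in this way.

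Socs3 (ENSMUSG00000053113, chromosome 11, 117966079 to 117970047, minus strand) measured 37.6, 23.6 and 13.7 CPM in ctrl_vehicle and 20.5, 21.9 and 15.3 in ctrl_AA14. The cre_vehicle libraries had 24.2, 20.1 and 21.03 CPM, and the cre_AA14 libraries 203.1, 16.8 and 19.9 CPM. One library, cre_AA14 1, was far above the other 11, which stayed between 13.7 and 37.6 CPM. Over 12 libraries 98% of 3307 genes of like level had a smaller SD than Socs3. The same library had 166.3 summed CPM of 10 inflammation genes, against 1.25 to 8.66 CPM in the other 11, and 8 of those 10 genes passed the count filter. Its 12 immediate-early and dissociation genes summed to 7243 CPM, against 262.8 to 2074 CPM in the others. Il6, the cytokine interleukin 6, had 920 counts there, 12 counts in ctrl_vehicle 1 and 0 in the other 10 libraries. Stat3, the factor that carries interleukin 6 signals, was 171.6 CPM in cre_AA14 1 and 54.2 to 92.5 CPM elsewhere. The second highest Socs3 library, ctrl_vehicle 1, also had the second highest immediate-early sum. Below it the orders parted. The next library by that sum, ctrl_AA14 1 at 1518 CPM, had 20.5 CPM of Socs3. The next by Socs3, cre_vehicle 1 at 24.2 CPM, had a sum of 335.3 CPM. The part of the genes on these lists in the Socs3 level was not tested.

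**Figure D4:**
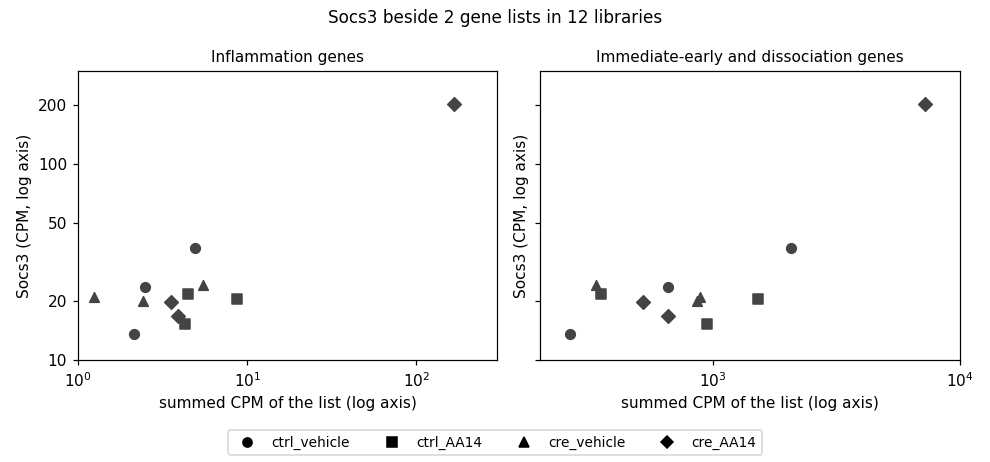
Socs3 (CPM, log axis) is plotted against the summed CPM (log axis) of 10 inflammation genes at left and 12 immediate-early and dissociation genes at right, 1 point per library with symbols for the 4 groups. The point at 203.1 CPM of Socs3 is cre_AA14 1, which is also the highest library on both horizontal axes.

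By the search for genes nearest to Socs3 in pattern, Bcl3, Ppp1r15a, Gadd45b, Sfn and Cd14 were closest among 11856 genes of at least 5 CPM on average. Their root mean square difference from Socs3 in centred log2(CPM + 0.5) was 0.27 to 0.38 over 12 libraries, where Socs3 itself had 0.97 around its own mean. Since the spread of Socs3 is mostly that of cre_AA14 1, such a search returns genes that are highest there, as all 5 were. Bcl3 and Cd14, with means of 4.42 and 3.99 CPM in the other 11 libraries, reached an average of 5 CPM only through that library. Cd14, a co-receptor for bacterial lipopolysaccharide, had 46.0 CPM there. For Socs1, with 0.49 around its mean, the nearest genes included Rom1, Med26, Fndc10 and Bcar1, at 0.18 to 0.19. Each of these was also highest in cre_AA14 1. The other 6 of the 8 genes spanned less than 1.5 on the log2 scale and were not searched.

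Cish and Socs2, the STAT5-induced inhibitors, showed no shift between groups beyond their spread. Cish (ENSMUSG00000032578, chromosome 9, 107296026 to 107302784, plus strand) measured 30.2, 31.0 and 16.7 CPM in ctrl_vehicle, 30.5, 23.7 and 37.2 in ctrl_AA14, 24.9, 24.3 and 29.4 in cre_vehicle, and 31.7, 27.9 and 27.9 in cre_AA14. All 4 groups overlapped. Its lowest library was the oligodendrocyte-rich ctrl_vehicle 3. The other such libraries, ctrl_AA14 1 with 30.5 CPM and cre_vehicle 2 with 24.3 CPM, lay within the range of the rest. Cish exons overlap those of Gm17040 and Gm17041 on the opposite strand by 740 bases in all, and the strand setting of the counting is not given in the sources used here.

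Socs2 (ENSMUSG00000020027, chromosome 10, 95385362 to 95417180, minus strand) measured 62.5, 73.7 and 42.3 CPM in ctrl_vehicle, 60.02, 67.84 and 56.55 in ctrl_AA14, 61.1, 39.9 and 70.7 in cre_vehicle, and 57.9, 53.7 and 69.2 in cre_AA14. All 4 groups overlapped here too. The 2 lowest Socs2 libraries, ctrl_vehicle 3 and cre_vehicle 2, were those with the highest oligodendrocyte sums, 2382 and 3313 CPM; the part of those cells in the Socs2 level was not tested. The Cish to Socs2 ratio of CPM ranged from 0.349 to 0.657 over the 5 Malat1-rich libraries and from 0.394 to 0.609 over the other 7.

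The reference gene Gh (ENSMUSG00000020713, chromosome 11, 106300271 to 106301865, minus strand) measured 90440, 176300 and 116900 CPM in ctrl_vehicle and 188700, 212900 and 241900 CPM in ctrl_AA14. These groups did not overlap, with the AA14 libraries higher. The cre_vehicle libraries had 211600, 110900 and 164400 CPM and the cre_AA14 libraries 99590, 218000 and 203900 CPM, which overlapped. Gh takes a large part of all counts, which bears on the measured level of every other gene. The CPM and the edgeR fold changes below use the same normalisation factors, which are meant to allow for it.

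To ask how the 8 genes responded to AA14 while Gpr101 was not targeted, ctrl_AA14 was compared with ctrl_vehicle. Stat5b had the lowest p of the 8, with a log2 fold change of -0.77 (SE 0.23; unadjusted p = 0.00607; adjusted p = 0.141, edgeR quasi-likelihood test with Benjamini-Hochberg adjustment), and did not pass 0.05. Its adjusted p was 0.0332 with DESeq2 and 0.0199 with limma-voom and quality weights, and 0.0263 when only the 6 libraries compared were fitted; over 23 alternatives it ranged from 0.0199 to 1. With the library state as a term in the fit, the Stat5b log2 fold change was -0.10 (SE 0.18; adjusted p = 1). In control-virus mice this state coincides with AA14. The term was thus estimated from the cre libraries alone and carried over, and it gives no separate AA14 effect here. The same holds below wherever control-virus libraries enter such a fit. Without the 3 oligodendrocyte-rich libraries the Stat5b log2 fold change was -0.57 (adjusted p = 0.474, edgeR).

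Next came Stat5a at -0.37 (SE 0.20; adjusted p = 0.287) and Socs1 at -0.73 (SE 0.47; adjusted p = 0.361). With the library state as a term, again estimated from the cre libraries, they were 0.04 and 0.57, so both turned in sign. Socs3 had -0.37 (SE 0.76, and 0.31 without cre_AA14 1; adjusted p = 0.797), Cish 0.23 (SE 0.24; adjusted p = 0.578) and Socs2 0.05 (SE 0.24; adjusted p = 0.926). Gh had 0.75 (SE 0.32; adjusted p = 0.195, edgeR), and 0.17 with the library state as a term.

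None of the 8 genes passed 0.05 after adjustment in this comparison, and 1 had an unadjusted p under 0.05. Over all genes tested the shares were 0.00442% (1 gene) and 23.8%. DESeq2 called 10.3% of its 22325 genes, limma-voom 15.1%, and the fit of only the 6 libraries 10.6%, each with Stat5b alone of the 8. Groups did not overlap for 3 of the 8, all lower with AA14; 37.7% of all genes did not overlap, 20.1% lower and 17.6% higher. The fold changes of the 8 were positive for 2 and negative for 6, with a median of -0.27, beside a median of -0.02 with 49.1% positive and 50.9% negative over all genes tested.

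After the cre virus, AA14 gave the 8 genes fold changes that were small next to their errors, except for Socs3. Socs3 had a log2 fold change of 1.88 (SE 0.79; unadjusted p = 0.0354; adjusted p = 1, edgeR). Without cre_AA14 1 it was -0.26, so 1 library set its size and its direction. The other log2 fold changes were -0.16 for Stat5b (SE 0.23), 0.15 for Cish, 0.13 for Stat5a, 0.08 for Socs2 and 0.06 for Socs1. Without cre_AA14 1 the Socs1 value was -0.49. None of the 8 passed adjustment in edgeR, limma-voom or DESeq2 and no group pair stood apart. Over all genes edgeR called 0, or 0%, with 2.29% at an unadjusted p under 0.05, DESeq2 called 14 (0.0627%) and limma-voom 0; groups did not overlap for 5.86%. Gh had 0.10 here (adjusted p = 1).

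Whether the AA14 response differed between the 2 viruses was tested directly, as the effect in control-virus mice minus that in cre mice. This difference was -0.61 for Stat5b on the log2 scale (SE 0.32; unadjusted p = 0.0828; adjusted p = 0.631, edgeR). With the library state as a term it was 0.03 (adjusted p = 1). It was -0.50 for Stat5a (SE 0.29), -0.79 for Socs1 and -2.25 for Socs3 (SE 1.09), each with an adjusted p of 0.631 or more. Without cre_AA14 1 the Socs3 difference was -0.13. For Ghr it was -0.08, for Jak2 -0.18, for Socs2 -0.03 and for Cish 0.08. None of the 8 passed adjustment, and none had an unadjusted p under 0.05; over all genes the shares were 0.00442% and 7.03%, DESeq2 called 0.116% and limma-voom 0%. Gh had a difference of 0.65 (adjusted p = 0.653).

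The cre virus itself was compared with the control virus under vehicle, a comparison that shares its ctrl_vehicle libraries with the one on AA14 above. All 8 log2 fold changes were small, from -0.20 for Socs1 and Socs3 to 0.01 for Cish, and Stat5b had -0.15. None of the 8 passed adjustment or had an unadjusted p under 0.05, where 0.00442% and 2% of all genes did; DESeq2 called 0.0851% and limma-voom 0.00884% of all genes, none of the 8 among them. No group pair of the 8 stood apart, beside 4.92% of all genes.

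Under AA14, Stat5a was 20.6 to 24.7 CPM in cre mice and 15.4 to 19.0 CPM in control-virus mice, without overlap, at a log2 fold change of 0.43 (SE 0.20; adjusted p = 0.591, edgeR). It was 0.15 with the library state as a term. Stat5b had 0.46 (adjusted p = 0.601), and -0.01 with that term. Socs1 had 0.59, which became -0.42 with that term. Socs3 had 2.05 (SE 0.79; unadjusted p = 0.0242; adjusted p = 0.582, edgeR) and -0.07 without cre_AA14 1. Ghr, Jak2, Socs2 and Cish lay between -0.06 and 0.15. None of the 8 passed adjustment; edgeR called 0% of all genes, with 8.52% at an unadjusted p under 0.05, DESeq2 called 34 genes (0.152%) and limma-voom 0. The 1 gene of the 8 whose groups stood apart was higher in cre mice, and compares with 14.1% of all genes apart, 7.3% higher.

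**Figure D5:**
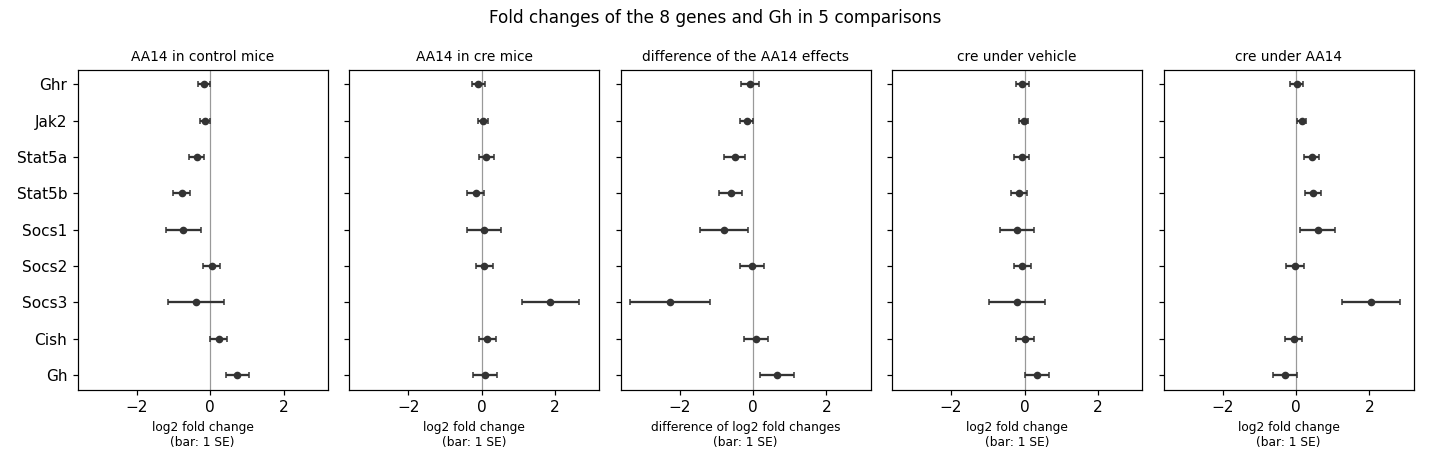
Points give the edgeR log2 fold change of the 8 genes and Gh in each comparison, with a bar of 1 SE; the middle panel is a difference of 2 such fold changes. Stat5b at -0.77 lies farthest from 0 in SE units among the 8 for AA14 in control mice, and Socs3 has the widest bars in all 5 panels.

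The pathway around the 8 genes was read from a list of 58 other receptors, kinases, STATs, inhibitors, adaptors and STAT5 targets, of which 55 were tested. For AA14 in control-virus mice none passed adjustment in edgeR; 5 (9.09%) were higher and 13 (23.6%) lower at an unadjusted p under 0.05, beside 8.03% and 15.8% of all genes tested. The median log2 fold change of the 55 was -0.23. Adaptors, which link receptors to the RAS and PI3 kinase routes, had 9 of 10 fold changes below 0, beside 50.9% of all genes tested. Their median of -0.55 was the lowest among the parts of this list. Medians were -0.39 for STAT5 targets, -0.17 for phosphatases and other inhibitors and -0.15 for other SOCS genes. They were above 0 for receptors (0.08), STATs (0.27) and kinases (0.27). The smallest p were those of Socs7, Src, Sos1 and Grb2. Socs7, another SOCS protein, measured 59.7, 64.9 and 71.6 CPM in ctrl_vehicle and 31.6, 33.3 and 29.1 CPM in ctrl_AA14 (log2 fold change -1.06, SE 0.24; adjusted p = 0.141, edgeR). Src, a kinase that can also act from the GH receptor, measured 48.9, 47.0 and 65.4 CPM against 29.4, 26.8 and 23.3 CPM (log2 fold change -1.02, SE 0.27). Grb2, an adaptor of the RAS route, had a log2 fold change of -1.21 and its partner Sos1 -0.58, each with an adjusted p of 0.141.

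Between the 5 Malat1-rich libraries and the other 7, 17 of the 55 (30.9%) did not overlap, beside 22.4% of all genes. In the 5, 15 (27.3%) were lower and 2 (3.64%) higher, beside 13.1% and 9.23% of all genes. Socs7, Src and Grb2 were among the 15, as were Stat3, Il6st, Il6ra and the phosphatase genes Ptpn1 and Ptpn11. Among the cre_vehicle libraries, for example, Socs7 was 36.6 CPM in the Malat1-rich library and 62.9 and 62.7 CPM in the other two.

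After the cre virus the 55 genes were balanced, with 28 positive and 27 negative AA14 fold changes and a median of 0.03. The smallest p was that of Igfals, which had 0 to 28 counts per library and is too scarce to read. Igf1, the best known STAT5 target in liver, measured 6.64, 6.07 and 5.83 CPM in ctrl_vehicle and 8.565, 7.999 and 10.8 CPM in ctrl_AA14, higher without overlap (log2 fold change 0.56, SE 0.22; unadjusted p = 0.0254; adjusted p = 0.166, edgeR). In the cre mice Igf1 measured 6.13, 5.71 and 7.38 CPM with vehicle and 7.40, 7.14 and 10.4 CPM with AA14, which overlapped (log2 fold change 0.37, SE 0.22; adjusted p = 1, edgeR). The difference between these 2 effects was 0.19 (SE 0.31; adjusted p = 0.849, edgeR). Under AA14, cre against control virus gave 14 (25.5%) higher and 1 (1.82%) lower at an unadjusted p under 0.05, beside 7.08% and 1.44% of all genes. The smallest p were those of Ptpn1 at 0.90, Socs7 at 0.64, Il6ra at 0.78 and the kinase gene Pim3 at 1.099 (adjusted p = 0.582 each). Ptpn1 measured 117.6, 47.1 and 75.4 CPM and Pim3 123.3, 33.4 and 60.6 CPM in cre_AA14 1, 2 and 3, so both were highest in the library with the high inflammation sum. All 3 ctrl_AA14 libraries of this comparison are Malat1-rich, with 37.7 to 47.8 CPM of Ptpn1 and 27.5 to 44.5 CPM of Pim3; the part of either library state was not tested.

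Relations with Gh were computed over libraries, on log2(CPM + 0.5), with two-sided permutation tests and Benjamini-Hochberg adjustment. The adjustment left out Stat5b and Socs1 except within the 7 Malat1-poor libraries, where it ran over all 8 genes. Libraries were permuted freely across the groups, so differences between groups and between library states enter these p. Jak2 had the strongest, with Pearson r = -0.61 (p = 0.0257, adjusted 0.13) and Spearman rho = -0.73 (p = 0.00866, adjusted 0.052) over 12 libraries in a permutation test. Without ctrl_vehicle 1 and cre_AA14 1, the 2 libraries farthest from the median Gh level, r was -0.42, and within the 7 Malat1-poor libraries it was -0.32. Stat5a had r = -0.52 (permutation p = 0.0883, adjusted 0.177) and rho = -0.68 (p = 0.0191, adjusted 0.0573), but r = 0.15 within the 7 libraries. Socs3 had r = -0.53 (permutation p = 0.0433, adjusted 0.13) and rho = -0.44, and r = 0.20 without those 2 libraries, so its relation rested on them. Socs2 had r = 0.41, Cish 0.23 and Ghr 0.08, with rho of 0.03, -0.02 and 0.16 and adjusted permutation p of 0.283 or more. Without the same 2 libraries Socs2 had r = 0.66 (permutation p = 0.0358, adjusted 0.151), Cish 0.64 (permutation p = 0.0505, adjusted 0.151) and Ghr -0.24, with rho of 0.09, 0.30 and -0.08. Since Stat5b and Socs1 fall into separate sets by library state, they were related to Gh only within the 7 libraries, where r was -0.12 (exact permutation p = 0.771) and -0.40 (exact permutation p = 0.374). No relation passed adjustment, and all libraries share the constraint that Gh takes a large part of the counts.

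The 8 transcripts differ in base composition. The GC content of the longest transcript was 58.8% for Socs1, 58.7% for Socs3, 57.9% for Stat5a, 53.1% for Cish, 52.7% for Stat5b, 45.4% for Socs2, 44.3% for Jak2 and 40.9% for Ghr, beside a median of 49.4% for the genes tested. Ghr and Jak2, the steadiest of the 8, were the lowest in GC content, and Socs1 and Socs3, the most variable, the highest. The spread of Socs3 is mostly that of cre_AA14 1. The genes between did not keep this order. Stat5a, at 57.9%, had a smaller log2 SD (0.26) than Stat5b (0.39), Cish (0.29) and Socs2 (0.27). Whether base composition plays a part was not tested.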

How the data were processed

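Bulk RNA sequencing of 12 pituitary libraries was analysed. TRIzol RNA, a NEBNext Ultra kit and 150 bp paired NovaSeq reads mapped by HISAT2 2.0.0 are given per the labels' protocols. GRCm38, DESeq 1.8.3 and featureCounts 1.5.0-p3 are named in the submitters' processing notes. Not given in the sources used here: annotation release, strand setting, treatment of shared reads. The authors deposited raw counts per gene. Of 55421 IDs, 55154 matched a symbol, and the rest held at most 0.0135% of a library. Genes were kept with filterByExpr and tested with edgeR 4.0.16 (TMM factors, quasi-likelihood F test, 12 libraries, 1 mean per group, Benjamini-Hochberg over 22630 genes, threshold 0.05); SE is the size of the log2 fold change over the square root of F. CPM are counts over the library size multiplied by its TMM factor. Annotation was GENCODE on GRCm38. Alternatives were DESeq2 1.42.0, limma 3.58.1, other factors and filters, left-out libraries and the library state as a term. All 8 genes, the 4 pathway genes of smallest p per comparison and genes nearest in pattern to a gene spanning over 1.5 on the log2 scale were named by rule; Il6, Stat3 and other values beside a result were chosen for it. The genes, lists, library states and tests were chosen with earlier results of these data known. The scripts were tested on simulated data.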

Additional observations from a re-analysis of the deposited data

How the results depend on the processing

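Fold changes of the 8 genes and Gh in the 5 comparisons, 45 in all, were recomputed under 1039 alternative values. Direction and side of the threshold were as reported in 945, 3 passed the threshold (Stat5b, AA14 in control-virus mice, given above), and 91 changed sign. None of the 45 fold changes passed the threshold in the main fit, so a change of sign could not undo a call. The largest value with a changed sign was 0.61 in size. Apart from the fits named here the cause was not tested. With groups of 3 and a common biological coefficient of variation of 0.445, small changes are beyond the depth of replication, and Socs1 is also limited by its 78 to 326 counts. Libraries up to 1000 CPM of Malat1 were compared alone where both groups kept at least 2 of them, which was so for cre under vehicle and for AA14 in cre mice. In the latter no sign turned; Socs3 had 2.43 (adjusted p = 1, edgeR), with cre_AA14 1 as one of the AA14 libraries, and Stat5b -0.23.

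The number of genes past the threshold depended on the tool. For AA14 in control-virus mice it was 1 in edgeR, 2299 in DESeq2, 3409 in limma-voom, 2266 with only the groups compared, 4 with the library state as a term, and 2 without a count filter or without the oligodendrocyte-rich libraries. For AA14 in cre mice it was 0, with 14 in DESeq2 and 1 without those libraries. For the difference of the AA14 effects it was 1, with 26 in DESeq2, 0 in limma-voom, 4 with the library state and 3 without those libraries. For cre under vehicle it was 1, with 19 in DESeq2, 2 with RLE factors, limma-voom or the stricter filter, and 3 with the library state, without those libraries or in Malat1-poor libraries alone. For cre under AA14 it was 0, with 34 in DESeq2, 2 with the library state and 1 with only the groups compared. Leaving out 1 library gave 1 to 5, 0 to 2, 1 to 3, 1 to 3 and 0 to 1 genes in these 5 comparisons.

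Without the 3 oligodendrocyte-rich libraries the sign turned for AA14 in control-virus mice, Ghr (0.067) and Socs2 (-0.10) and for AA14 in cre mice, Socs2 (-0.14) and Gh (-0.13). The same fit did so for the difference of the AA14 effects, Ghr (0.16), Socs2 (0.036) and Cish (-0.070) and for cre under vehicle, Ghr (0.038) and Cish (-0.15). The same fit did so for cre under AA14, Ghr (-0.12). With the library state as a term the sign turned for AA14 in control-virus mice, Stat5a (0.039), Socs1 (0.57) and Socs3 (0.61) and for the difference of the AA14 effects, Stat5b (0.035), Socs1 (0.56) and Socs2 (0.019). The same fit did so for cre under vehicle, Jak2 (0.0099), Stat5a (0.039), Stat5b (0.025), Socs1 (0.14) and Socs3 (0.25) and for cre under AA14, Stat5b (-0.0098), Socs1 (-0.42) and Gh (0.056). With limma-voom with quality weights the sign turned for AA14 in control-virus mice, Socs2 (-0.064) and Cish (-0.0050) and for AA14 in cre mice, Ghr (0.034), Stat5a (-0.034) and Socs1 (-0.20). The same fit did so for the difference of the AA14 effects, Cish (-0.055) and for cre under vehicle, Stat5a (0.12), Stat5b (0.11) and Cish (-0.060). The same fit did so for cre under AA14, Socs2 (0.055). With the replicate number as a block the sign turned for AA14 in cre mice, Socs1 (-0.016). With upper-quartile factors the sign turned for the difference of the AA14 effects, Ghr (0.029) and Socs2 (0.067) and for cre under AA14, Ghr (-0.055). With RLE factors the sign turned for the difference of the AA14 effects, Socs2 (0.0089). With library sizes without hormone genes the sign turned for the difference of the AA14 effects, Socs2 (0.0059). With DESeq2 the sign turned for the difference of the AA14 effects, Socs2 (0.0088). With a filter of 5 CPM in 3 libraries the sign turned for the difference of the AA14 effects, Socs2 (0.022) and for cre under AA14, Ghr (-0.021). With only libraries up to 1000 CPM of Malat1 the sign turned for cre under vehicle, Stat5a (0.099), Stat5b (0.073) and Socs1 (0.094). With only the groups compared the sign turned for cre under AA14, Ghr (-0.0029).

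Leaving out 1 library at a time moved the log2 fold change for AA14 in control-virus mice through 0 for Socs2 from -0.15 to 0.23, Socs3 from -0.67 to 0.045 and Cish from -0.0076 to 0.38. Leaving out 1 library at a time moved the log2 fold change for AA14 in cre mice through 0 for Jak2 from -0.079 to 0.11, Stat5a from -0.045 to 0.40, Stat5b from -0.39 to 0.0073 and Socs1 from -0.49 to 0.40. Likewise for AA14 in cre mice, Socs2 from -0.13 to 0.26, Socs3 from -0.26 to 2.35 and Gh from -0.11 to 0.37. Leaving out 1 library at a time moved the log2 fold change for the difference of the AA14 effects through 0 for Ghr from -0.23 to 0.034, Socs2 from -0.22 to 0.17 and Cish from -0.16 to 0.23. Leaving out 1 library at a time moved the log2 fold change for cre under vehicle through 0 for Ghr from -0.13 to 0.028, Jak2 from -0.063 to 0.0030, Stat5a from -0.34 to 0.095 and Stat5b from -0.32 to 0.068. Likewise for cre under vehicle, Socs1 from -0.41 to 0.089, Socs2 from -0.25 to 0.14, Socs3 from -0.49 to 0.22 and Cish from -0.22 to 0.16. Leaving out 1 library at a time moved the log2 fold change for cre under AA14 through 0 for Ghr from -0.091 to 0.18, Socs2 from -0.14 to 0.057, Socs3 from -0.066 to 2.54 and Cish from -0.21 to 0.093.

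Replicate numbers did not pair the libraries: correlations of deviations between the 18 same-numbered pairs ran from -0.584 to 0.346, and 5 exceeded 0.1. With the replicate block, the Stat5b log2 fold change for AA14 in control-virus mice was -0.76 (adjusted p = 0.218, edgeR) and no call on the 8 genes changed. The correlation with Gh changed sign for Ghr (-0.24) and Socs3 (0.20) without the 2 libraries farthest in Gh, and for Stat5a (0.15) in the 7 Malat1-poor libraries. Per kilobase of the longest transcript, medians were 4.55 for Ghr, 5.24 for Stat5a, 14.3 for Socs2 and 6.10 CPM for Cish.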
